A study of Rattus norvegicus with 14 samples.

Results

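In all, 30 genes of protein folding in the endoplasmic reticulum (ER), of protein entry into it and of disposal from it were followed in IEC-6 cells, a line derived from rat small intestinal crypts, after exposure to non-steroidal anti-inflammatory drugs. The genes were chosen by symbol from a list drawn up with earlier results of these data known. Each was read from 1 probe set, the one with the highest mean log2 signal over the 14 arrays. All 30 were found among the 14217 named genes with a probe set, and all 30 passed the filter on low signals, which kept 9839 genes. The list holds 11 chaperones and folding factors, 6 disulfide isomerases and relatives, 5 translocon genes, 7 genes of ER-associated degradation (ERAD) and the regulator Xbp1. The 4 groups of monolayers were compared after 72 h: DMSO, the solvent of the drugs, on 4 arrays; indomethacin at 100 µM, an inhibitor of both cyclooxygenases, on 2 arrays; NS-398 at 100 µM, an inhibitor that prefers the inducible cyclooxygenase, on 4 arrays; and SC-560 at 1 µM, an inhibitor that prefers the constitutive one, on 4 arrays. By the submitters' account these cells migrate less under indomethacin and NS-398 but not under SC-560, and the comparisons ask which genes separate the drugs. All groups share 1 established cell line, grown without other cells of the gut.

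Proteins made for secretion or for membranes enter the ER through the Sec61 channel, assisted by the signal sequence receptor complex. Inside, the chaperones BiP (Hspa5) and its partners, the lectins calnexin and calreticulin and the disulfide isomerases fold them, and proteins that fail are drawn back to the cytosol by the Sel1l-Syvn1 ligase complex, the derlins and the ATPase Vcp. When unfolded proteins accumulate, the sensors IRE1, PERK and ATF6 raise chaperone and ERAD genes through XBP1, ATF4 and cleaved ATF6, a program known as the unfolded protein response. In the intestine it is best known from goblet and Paneth cells, whose secretion loads the ER heavily.

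The values are signal intensities of one-colour expression arrays, in arbitrary units, which the authors scaled to a common target on each array. A signal depends on the probes, so signals were compared between arrays and never between genes. Of the 14 arrays, 8 carry the suffix b in their labels (2 of each group) and 6 do not (2 each of DMSO, NS-398 and SC-560); the labels do not say what the suffix stands for. The arrays split by suffix along the first principal component, which held 69.2% of the variance, and the ratio of 3′ to 5′ beta-actin signal was 1.498 to 1.64 without suffix and 1.22 to 1.34 with it. Indomethacin was therefore compared only with arrays of suffix b, here called set b. Within set b its arrays lay at 37.7 and 39.0 on that component and the others at 27.2 to 33.2. The part of that difference in the change of the ER genes was not tested. The design text describes pooled material that was hybridised to several chips per biological sample, so p-values here rest on differences among arrays of a group, which may reflect technique alone. Median signals per array lay between 97.8 and 118, and the small number of arrays limits the precision. Of 10 epithelial markers, 5 had a median signal of at least 100 (Krt8, Krt19, Cdh1, Cdx2 and Lgals4), while Epcam, Krt18, Cldn4, Vil1 and Cdx1 did not. Of 10 fibroblast and smooth muscle markers, 7 did, including the collagen genes Col1a1, Col1a2 and Col3a1, as did 0 of 4 leukocyte markers and 1 of the 3 endothelial ones measured (Tek).

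After indomethacin many folding genes of the ER were higher, most of all Creld2, Sdf2l1, Herpud1, Dnajc3 and Pdia4, by 1.44- to 1.71-fold. Changes are differences of log2(signal + 50) with their standard errors, and a gene was called when limma's p, adjusted by Benjamini-Hochberg over 17515 probe sets, was under 0.05. In set b, 14 of the 30 genes were called higher with indomethacin than with DMSO, 0 lower, and 16 were not called. Over all probe sets 6.70% were called, 3.62% higher and 3.08% lower. Since the list was drawn up with earlier results known, its contrast with all probe sets here and below is a description and not a test. The median change of the 30 genes was 0.19, against a median of -0.0037 over all probe sets tested. Of the 30 changes 29 were above 0, where 49.2% of all probe sets were. Calls were unequal among the roles: 8 of 11 chaperones and folding factors (median 0.30), 4 of 6 disulfide isomerases and relatives (0.22), 1 of 5 translocon genes (0.041), 1 of 7 ERAD genes (0.18) and not Xbp1. These counts depend on the probe set chosen, since the ERAD gene Edem1 was called by its other probe sets and not by the one used. Both indomethacin arrays lay above both DMSO arrays for 21 of the 30 genes, where 26.5% of all probe sets did so, and above the other 6 arrays of set b for 16, where 7.68% did so. They lay below both DMSO arrays for 0 of 30, where 26.7% of all probe sets did so, and below the other 6 arrays for 0, where 7.46% did so.

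The count rested on all 4 arrays compared. It fell to 8 without the DMSO array 1b, 8 without the indomethacin array 2b and 10 without either of the other two, while 14 changes stayed above 0. The calls of Sdf2l1, Hsp90b1, Dnajc3, Pdia4, Creld2 and Herpud1 held whichever of these arrays was left out. Without limma's intensity trend 5 of the 14 calls were left. The calls over all probe sets also fell with each array left out and without the trend, by the counts given in the last section. The summed signal of the 10 epithelial markers was 16936 and 16944 on the indomethacin arrays, 13711 to 14231 on the DMSO arrays, 13688 to 14627 on the NS-398 arrays and 15195 to 15294 on the SC-560 arrays of set b. The sum of the fibroblast and smooth muscle markers was 90698 to 94078 with indomethacin and 90990 to 94278 with DMSO, that of the leukocyte markers 170.0 to 176 and 197 to 198, and that of the endothelial markers 800.1 to 849 and 706 to 755. Single markers differed within these sums. Of the 7 epithelial markers tested 3 were called higher with indomethacin (Cdx2 by 0.55, adjusted p 0.00186; Cdx1, at low signals, by 1.23, 0.0143; Krt8 by 0.22, 0.0257). Of the 8 fibroblast and smooth muscle markers tested 2 were called lower, Tagln (-1.88, adjusted p 0.000872) and Dcn (-0.66, 0.0152), and the sum is carried by Vim and the collagen genes. The other cell types' markers tested, Tek (0.087), Kdr (0.44) and Cd68 (0.21), had adjusted p of 0.403 to 0.687. The beta-actin ratio was 1.23 to 1.25 with indomethacin and 1.27 to 1.34 with DMSO. The part of these differences in the change of the ER genes was not tested. In RNA of whole cultures, a large change in some cells and a small one in all of them cannot be told apart.

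**Figure D1:**
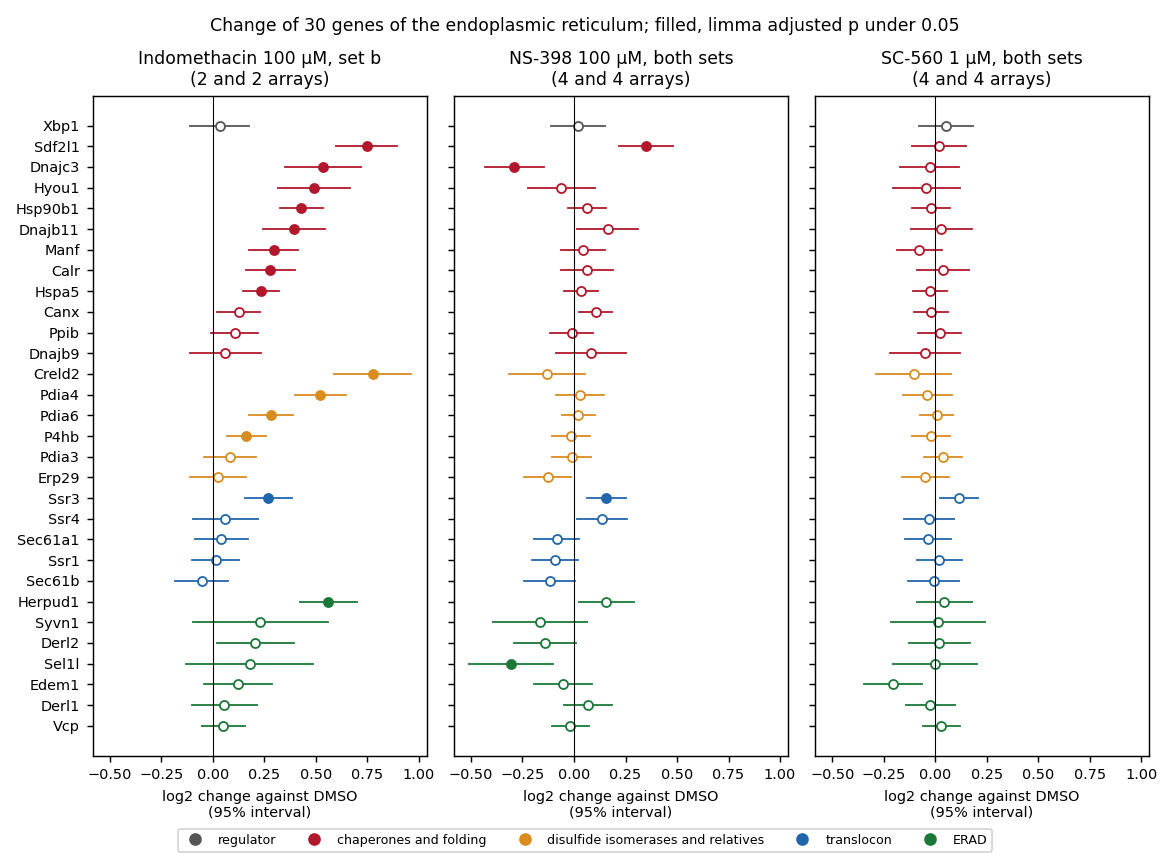
Log2 change (x axis, log2 signal units) of each of the 30 genes (rows, coloured by role) against DMSO for indomethacin in set b, NS-398 and SC-560; lines are 95% intervals and filled points are limma calls at an adjusted p under 0.05. The indomethacin panel has 14 filled points, all right of 0, NS-398 has 2 on each side and SC-560 has none; SC-560 was given at 1 µM and the other drugs at 100 µM.

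Among the chaperones, BiP (Hspa5), the central Hsp70 of the ER, gave 16542 and 16159 with indomethacin (arrays 1b and 2b in this order throughout), 13872 and 13877 with DMSO, 14073 and 14324 with NS-398 and 14315 and 13957 with SC-560 in set b. Without suffix, Hspa5 gave 13338 and 13253 with DMSO, 13054 and 14257 with NS-398 and 12762 and 12414 with SC-560. The indomethacin arrays were the highest of all 14, and the other groups of set b lay close together. The change was 0.24 ± 0.040 or 1.18-fold (adjusted p 0.00571). It was no longer called without the DMSO array 1b (adjusted p 0.0593) or the indomethacin array 1b (0.0516). Hsp90b1, the ER form of Hsp90, gave 13331 and 12793 with indomethacin, 9875 and 9486 with DMSO, 9407 and 9906 with NS-398 and 9628 and 9437 with SC-560 in set b. Without suffix, Hsp90b1 gave 7329.6 and 6884 with DMSO, 7615 and 7927 with NS-398 and 6864 and 7143 with SC-560. Both indomethacin arrays stood well above the 12 others, and the change was 0.43 ± 0.048 or 1.35-fold (adjusted p 0.000496).

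Hyou1, which exchanges nucleotide on BiP, gave 1655 and 1786 with indomethacin, 1256 and 1163 with DMSO, 1153 and 1184 with NS-398 and 1277 and 1343 with SC-560 in set b. Without suffix, Hyou1 gave 819 and 696 with DMSO, 701 and 727 with NS-398 and 643 and 659.6 with SC-560. The arrays without suffix were all lower than those of set b, and within set b the indomethacin arrays did not overlap with the rest. The change was 0.49 ± 0.079 or 1.41-fold (adjusted p 0.00415, and 0.0531 without the indomethacin array 2b). Calreticulin (Calr), a lectin that binds new glycoproteins, gave 9592 and 10705 with indomethacin, 8484 and 8198 with DMSO, 9421 and 9506 with NS-398 and 9537 and 9439 with SC-560 in set b. Without suffix, Calr gave 7428 and 6505 with DMSO, 6779 and 6582 with NS-398 and 6416 and 6479 with SC-560. Here DMSO was the low group of set b, and the lower indomethacin array stood only just above the NS-398 and SC-560 arrays. The change against DMSO was 0.28 ± 0.055 or 1.21-fold (adjusted p 0.0118), and was not called without the DMSO array 1b (0.0625), the DMSO array 2b (0.0727) or the indomethacin array 2b (0.108). Its membrane-bound relative calnexin (Canx) was not called (0.13 ± 0.047, adjusted p 0.143).

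The J-domain proteins, which deliver clients to BiP and stimulate its ATPase, differed among themselves. Dnajc3 gave 2531 and 2326 with indomethacin, 1718 and 1602 with DMSO, 1316 and 1448 with NS-398 and 1796 and 1611 with SC-560 in set b. Without suffix, Dnajc3 gave 1425 and 1288 with DMSO, 1131 and 1018 with NS-398 and 1207 and 1336 with SC-560. Indomethacin was the highest group and NS-398 the lowest, and the change was 0.53 ± 0.084 or 1.45-fold (adjusted p 0.00365). Dnajb11 gave 3519.7 and 3453 with indomethacin, 2603 and 2677 with DMSO, 3308 and 2964 with NS-398 and 2649 and 2487 with SC-560 in set b. Without suffix, Dnajb11 gave 1084 and 1046 with DMSO, 1145 and 1119.6 with NS-398 and 1253 and 1045 with SC-560. NS-398 lay between DMSO and indomethacin in set b, and the difference between the sets exceeded that between the groups. The change was 0.39 ± 0.068 or 1.31-fold (adjusted p 0.00629, and 0.0656 without the DMSO array 1b). Dnajb9 was not called (0.060 ± 0.079, 95% interval -0.11 to 0.23).

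Sdf2l1, an ER protein that works with Dnajb11, had the smallest adjusted p of the list. Its signals were 2377 and 2284 with indomethacin, 1397 and 1341 with DMSO, 1895 and 1849.5 with NS-398 and 1517 and 1488 with SC-560 in set b. Without suffix, Sdf2l1 gave 864 and 802 with DMSO, 984 and 1031 with NS-398 and 793 and 758 with SC-560. The groups of set b formed steps without overlap, from DMSO over SC-560 and NS-398 to indomethacin. The change with indomethacin was 0.75 ± 0.068 or 1.68-fold (adjusted p 0.000157). Manf, a factor that binds BiP and is secreted under ER stress, gave 5023 and 5069 with indomethacin, 4201 and 4008 with DMSO, 4178 and 4146 with NS-398 and 4035 and 3921 with SC-560 in set b. Without suffix, Manf gave 3603 and 3245 with DMSO, 3439 and 3726 with NS-398 and 3055 and 3284 with SC-560. The indomethacin arrays were alike and above all others, with a change of 0.30 ± 0.054 or 1.23-fold (adjusted p 0.00842). The call of Manf was lost without the DMSO array 2b (0.0616), the indomethacin array 1b (0.0513) or the indomethacin array 2b (0.0647). Ppib, a prolyl isomerase, was not called (0.11 ± 0.052, adjusted p 0.257).

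Of the disulfide isomerases and relatives, Creld2, an ER-resident protein with isomerase activity, had the largest change of the list. It gave 2579 and 2315 with indomethacin, 1329.6 and 1487 with DMSO, 1318 and 1416 with NS-398 and 1409 and 1528 with SC-560 in set b. Without suffix, Creld2 gave 984 and 1017 with DMSO, 847 and 852 with NS-398 and 713 and 947 with SC-560. The other 3 groups of set b overlapped, and indomethacin lay 1.71-fold above DMSO (0.78 ± 0.086, adjusted p 0.000507). Pdia4 gave 8725 and 8005 with indomethacin, 5874 and 5737 with DMSO, 5865 and 5722 with NS-398 and 5804 and 6115 with SC-560 in set b. Without suffix, Pdia4 gave 5577 and 4845 with DMSO, 5477 and 5352 with NS-398 and 4688 and 4921 with SC-560. All 12 arrays without indomethacin lay below the 2 with it, and the change was 0.52 ± 0.056 or 1.44-fold (adjusted p 0.000475). Pdia6, which acts with BiP, gave 12743 and 13515 with indomethacin, 10789 and 10766 with DMSO, 11607 and 10896 with NS-398 and 11279.6 and 10966 with SC-560 in set b. Without suffix, Pdia6 gave 11429 and 11149 with DMSO, 11186 and 11071 with NS-398 and 10929 and 11179.6 with SC-560. Both indomethacin arrays again topped all others, by 0.28 ± 0.049 or 1.22-fold over DMSO (adjusted p 0.00602). That call was lost without the DMSO array 1b (0.0574) or the indomethacin array 2b (0.0647). P4hb, the classical protein disulfide isomerase, changed by 0.16 ± 0.043 or 1.12-fold (adjusted p 0.0421), and leaving out any 1 of the 4 arrays ended its call, at 0.123 to 0.195. Pdia3, the isomerase that partners calnexin and calreticulin, was not called (0.084 ± 0.057, 95% interval -0.041 to 0.21), nor was Erp29, a relative without the catalytic cysteines (0.025 ± 0.062, -0.11 to 0.16).

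Of the translocon genes 1 was called. Ssr3, the gamma subunit of the signal sequence receptor, gave 8903 and 8717 with indomethacin, 7325 and 7278 with DMSO, 8817 and 8133 with NS-398 and 7611 and 8017 with SC-560 in set b. Without suffix, Ssr3 gave 7194 and 7391 with DMSO, 7905 and 7763 with NS-398 and 7808 and 8187 with SC-560. The DMSO arrays were the lowest of both sets, and NS-398 reached the range of indomethacin. The change with indomethacin was 0.27 ± 0.053 or 1.21-fold (adjusted p 0.0119), and leaving out any 1 of the 4 arrays ended the call, at 0.0595 to 0.0838. The other 2 subunits of that receptor measured here, Ssr1 (0.014 ± 0.053) and Ssr4 (0.061 ± 0.073), and the channel subunits Sec61a1 (0.041 ± 0.059) and Sec61b (-0.054 ± 0.060) were not called. Their 95% intervals lay within -0.18 and 0.22 on the log2 scale.

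In ERAD, Herpud1, a membrane protein that recruits factors to the Syvn1 ligase, was the gene called by the probe sets used here. It gave 3349 and 3621 with indomethacin, 2349 and 2339.5 with DMSO, 2356 and 2350.1 with NS-398 and 2326 and 2406 with SC-560 in set b. Without suffix, Herpud1 gave 1254 and 1213 with DMSO, 1595 and 1488 with NS-398 and 1297 and 1309 with SC-560. The 6 other arrays of set b lay in a narrow band, and the indomethacin arrays stood 1.48-fold above DMSO (0.56 ± 0.064, adjusted p 0.000573). The ligase itself, Syvn1, was uneven between its 2 indomethacin arrays (942 and 645, against 717 and 602 with DMSO) and was not called (0.23 ± 0.15). Its partner Sel1l gave 1543 and 1551 with indomethacin and 1240.0 and 1492 with DMSO in set b, where the DMSO arrays differed more than the groups (0.18 ± 0.14). Derl2, a derlin, differed by 0.21 ± 0.086 (unadjusted p 0.0339, adjusted p 0.186 by limma), and Edem1, which recognises trimmed glycans on misfolded proteins, by 0.12 ± 0.076 (adjusted p 0.392). The other probe sets of Edem1 were called higher, as given below. Derl1 (0.055 ± 0.072) and Vcp (0.052 ± 0.047) were close to 0. Xbp1, whose mRNA is spliced by IRE1 into the active form, gave 2969.9 and 2833 with indomethacin, 2922 and 2746 with DMSO, 2908 and 2709 with NS-398 and 3024 and 2927 with SC-560 in set b. Without suffix, Xbp1 gave 1993 and 1869 with DMSO, 2091 and 1919.9 with NS-398 and 2181 and 1797 with SC-560. The indomethacin arrays overlapped with each other group of set b, while both SC-560 arrays lay above those of DMSO and NS-398. The change with indomethacin was 0.034 ± 0.065 (95% interval -0.11 to 0.18), and splicing was not measured.

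**Figure D2:**
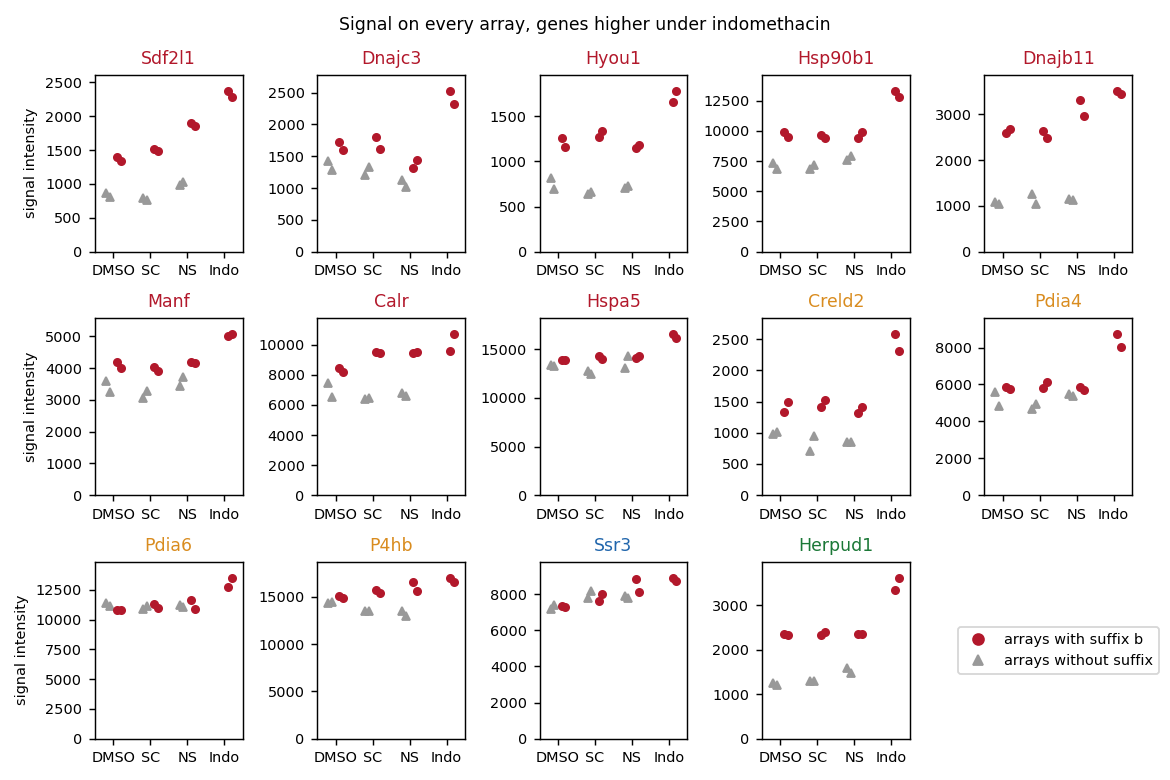
Signal intensity (y axis, arbitrary linear units from 0) on every array for the 14 genes called higher with indomethacin, by group (DMSO, SC-560, NS-398, indomethacin); circles are arrays of set b and triangles arrays without suffix, and each point is 1 array. The indomethacin arrays lie above the other 6 arrays of set b in every panel but that of Ssr3, where 1 NS-398 array reaches between them; in Calr and P4hb the gap is narrow.

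Many of these genes are textbook targets of ATF6 and XBP1, which bind the ER stress response element (ERSE) and its shorter form ERSE-II. Both were searched on both strands of RefSeq promoters of the rat assembly GRCr8, from 250 bases before to 50 after the annotated start, as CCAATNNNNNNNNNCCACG and ATTGGNCCACG. Promoters of 25 of the 30 genes were found. ERSE was in 7 of the 25 and in 0.0765% of all 27457 genes with a promoter, and ERSE-II in 3 of the 25 and in 0.0619% of all. The 2 motifs can overlap, but no promoter held both, and 0.138% of all these genes held either. The list holds textbook targets of these elements, and both were chosen with earlier results known. A high share in the list was thus set in advance and tests nothing. Of the 12 genes with a promoter that were called with indomethacin, 8 held either element, and of the 13 not called, 2 did (Canx and Xbp1). This contrast rests on the same choice of list and motifs and is a description, not a test. The matches of the 8 genes, and those of Canx and Xbp1 for comparison, are shown in the direction of transcription with 15 bases on each side and the match in capitals; the Dnajb11 line stops at the annotated start, where its match ends.
Hspa5: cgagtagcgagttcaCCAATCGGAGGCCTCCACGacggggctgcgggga
Hsp90b1 (distal): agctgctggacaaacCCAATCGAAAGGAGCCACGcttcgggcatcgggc
Hsp90b1 (proximal): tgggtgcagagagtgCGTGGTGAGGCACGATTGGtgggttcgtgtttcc
Creld2: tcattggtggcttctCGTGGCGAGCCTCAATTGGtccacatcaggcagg
Dnajc3: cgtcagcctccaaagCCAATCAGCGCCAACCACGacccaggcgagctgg
Calr: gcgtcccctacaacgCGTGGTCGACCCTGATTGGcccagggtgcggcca
Hyou1 (distal): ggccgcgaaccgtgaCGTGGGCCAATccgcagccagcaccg
Hyou1 (proximal): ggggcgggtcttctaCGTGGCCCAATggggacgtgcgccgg
Herpud1: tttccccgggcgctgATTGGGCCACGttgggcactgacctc
Dnajb11: atgtcccaggcggcgATTGGCCCACG
Canx: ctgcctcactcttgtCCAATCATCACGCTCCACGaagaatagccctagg
Xbp1: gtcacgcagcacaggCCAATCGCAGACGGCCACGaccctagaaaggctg
The first 6 lines and the last 2 are ERSE matches and the other 4 are ERSE-II matches; Creld2, Calr, the proximal match of Hsp90b1 and both of Hyou1 read on the reverse strand. In GRCr8 the lines lie, in this order, at chr3:38452958-38453006, plus strand; chr7:23012436-23012484, minus strand; chr7:23012332-23012380, minus strand; chr7:121789224-121789272, plus strand; chr15:102432519-102432567, plus strand; chr19:40213120-40213168, plus strand; chr8:53602679-53602719, plus strand; chr8:53602779-53602819, plus strand; chr19:10614806-10614846, minus strand; chr11:91672800-91672825, minus strand; chr10:35158054-35158102, minus strand; and chr14:84604543-84604591, plus strand. A match is a description of these letters and not a binding site shown here.

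The whole 250 bases before the start of Hspa5 (chr3:38452766-38453015, plus strand) show how close to the start its exact match lies. Only exact matches were searched for, so an element with a differing base would be missed in this and every other promoter.
Hspa5 promoter: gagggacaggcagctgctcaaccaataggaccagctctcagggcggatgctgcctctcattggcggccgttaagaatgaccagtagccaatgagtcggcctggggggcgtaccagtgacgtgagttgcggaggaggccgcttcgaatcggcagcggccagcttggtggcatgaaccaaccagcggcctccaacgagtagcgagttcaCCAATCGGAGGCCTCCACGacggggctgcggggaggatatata
Hspa5 held the match from -43 to -25, Dnajb11 from -10 to 1 and Calr from -232 to -214, counted from the annotated start. The 10 listed genes with an element had a median change of 0.41 with indomethacin, 8 of them called higher. Another 14 tested genes with an element lie outside the list, and 2 of these were called higher, Ero1b and Ppm1l, with a median of 0.017. Over all 8288 tested genes with a promoter in the table, 3.91% were called higher.

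**Figure D3:**
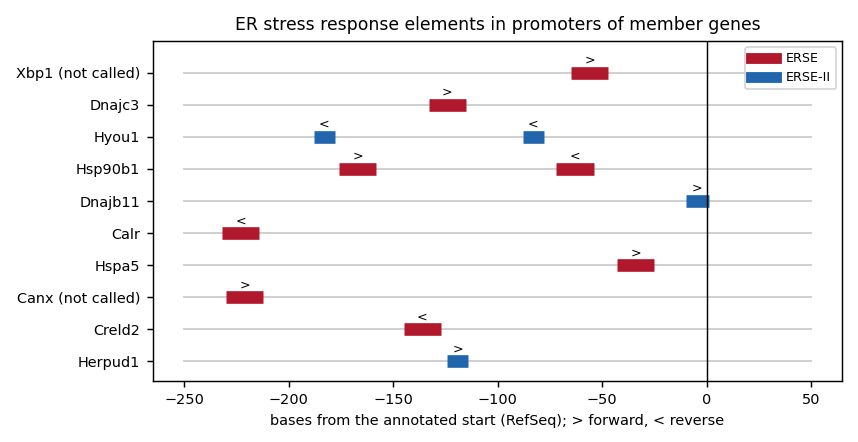
Position (x axis, bases from the annotated start) of ERSE (red) and ERSE-II (blue) matches in the promoters of the 10 listed genes that hold one; arrowheads give the strand. Matches are spread from -232 to 1, and Canx and Xbp1 are the 2 genes among the 10 not called with indomethacin.

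Of the 30 genes, 9 had more than 1 probe set, and some of these disagreed. For Edem1 the probe set with the highest signal gave 0.12 ± 0.076 with indomethacin (adjusted p 0.392), but the other 2 gave 0.74 ± 0.10 (adjusted p 0.00123) and 0.48 ± 0.11 (adjusted p 0.0239). The first of these was called without any 1 of the 4 arrays (adjusted p up to 0.0215), and the second was lost without the DMSO array 1b, the indomethacin array 1b or the indomethacin array 2b (up to 0.207). With the mean over its probe sets Edem1 was called (0.45, adjusted p 0.00401), and 15 of the 30 genes were. For Ssr3 all 3 probe sets were called, the others at 0.76 ± 0.12 (adjusted p 0.00372) and 0.37 ± 0.079 (adjusted p 0.0190). The second of these lost its call whichever array was left out (0.0526 to 0.125). The second probe set of Hyou1 gave 0.57 ± 0.19 and was not called (adjusted p 0.0998). The further probe sets of Canx, Pdia3, Sec61a1, Ssr1, Derl1 and Derl2 that passed the filter were not called with indomethacin, with changes from -0.082 to 0.27. With NS-398 against DMSO, the second probe set of Sec61a1 was called lower (-0.23 ± 0.064, adjusted p 0.0246), which the first was not (-0.085 ± 0.053, adjusted p 0.322). That call was lost without the DMSO arrays 1 or 2b or the NS-398 arrays 1b or 2b (adjusted p up to 0.0745).

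**Figure D4:**
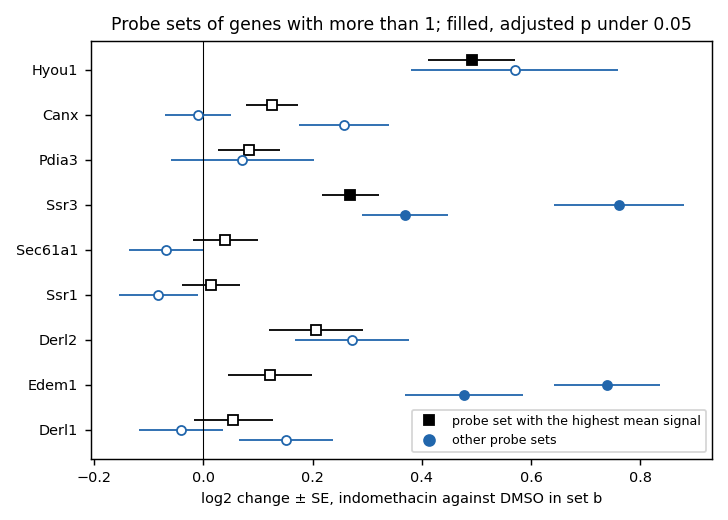
Log2 change with indomethacin against DMSO in set b (x axis, ± SE) for each tested probe set of the 9 genes with several; squares are the probe sets used in the text and circles the others, filled where the adjusted p is under 0.05. Edem1 is called by its 2 other probe sets and not by the one with the highest signal, and all 3 of Ssr3 are called.

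Indomethacin and NS-398, both given at 100 µM for 72 h, differed in the folding genes when set against each other in set b. Of the 30 genes, 12 were called higher with indomethacin than with NS-398 and 0 lower, where 9.31% of all probe sets were called, 4.01% higher and 5.29% lower. The median difference was 0.18, against 0.0082 over all probe sets. Among the calls that held without any 1 of the 4 arrays, Creld2 differed most (0.82 ± 0.086, adjusted p 0.000214), followed by Dnajc3 (0.79 ± 0.084, 0.000214), Herpud1 (0.56 ± 0.064, 0.000362), Hyou1 (0.54 ± 0.079, 0.00162), Pdia4 (0.52 ± 0.056, 0.000225) and Hsp90b1 (0.43 ± 0.048, 0.000271). Sel1l (0.54 ± 0.14, adjusted p 0.0363), Sdf2l1 (0.31 ± 0.068, 0.0168), Manf (0.27 ± 0.054, 0.00896), Pdia6 (0.22 ± 0.049, 0.016), Ssr1 (0.21 ± 0.053, 0.0291) and Hspa5 (0.20 ± 0.040, 0.00929) each lost the call without at least 1 array. Those arrays were both indomethacin arrays for Sdf2l1, Manf, Ssr1 and Sel1l, indomethacin 1b for Hspa5, indomethacin 2b for Pdia6, NS-398 1b for Ssr1 and Sel1l, and NS-398 2b for Sdf2l1, Pdia6 and Ssr1. The adjusted p then reached 0.0783 for Hspa5, 0.115 for Sdf2l1, 0.0631 for Manf, 0.129 for Pdia6, 0.172 for Ssr1 and 0.186 for Sel1l. The count was lower without either indomethacin array, and 6 without the intensity trend. The calls over all probe sets fell in these fits too, by the counts given in the last section.

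Of the 14 genes called against DMSO, 10 were also called against NS-398. Both comparisons use the same indomethacin arrays, and the overlap over all probe sets was not counted. The other 4 did not differ beyond the threshold. For Calr the difference between the drugs was 0.098 (95% interval -0.021 to 0.22), for Dnajb11 0.15 (0.0033 to 0.30), for P4hb 0.067 (-0.026 to 0.16) and for Ssr3 0.057 (-0.058 to 0.17), intervals that do not show that the drugs act alike. Edem1 differed by 0.25 ± 0.076 and was not called (adjusted p 0.0581), but was with the mean over its probe sets (0.54, adjusted p 0.000851), with the replicate block (0.0319), after quantile normalization (0.0451) and without the NS-398 array 1b (0.0313). P4hb was called after quantile normalization too (0.16, adjusted p 0.0187).

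NS-398 against DMSO was fitted over both sets with a term for the set, and the list was called at about the share of all probe sets. Sdf2l1 and Ssr3 were higher, Dnajc3 and Sel1l were lower, and the other 26 genes were not called. That is 2 of 30 higher and 2 lower, where 13.5% of all probe sets were called, 7.12% higher and 6.39% lower. The count thus marks out nothing about the list. The median change of the 30 was 0.0044 (all probe sets, -0.0076), with 15 above 0 and 15 below, where 48.2% of all probe sets were above 0. An unadjusted limma p under 0.05 was found for 9 of the 30 and for 4830 of the 17515 probe sets. Sdf2l1 rose by 0.35 ± 0.062 or 1.27-fold (adjusted p 0.00144), by 0.26 on the arrays without suffix and 0.44 in set b, from the signals given above. Ssr3 rose by 0.16 ± 0.044 or 1.12-fold (adjusted p 0.0248), by 0.10 without suffix and 0.21 in set b. Its 2 other probe sets gave 0.29 (adjusted p 0.0463) and 0.39 (adjusted p 0.00249), the first lost without most single arrays (adjusted p up to 0.131). Both NS-398 arrays of Sdf2l1 and of Ssr3 lay above both DMSO arrays in each set.

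Dnajc3, called higher with indomethacin, was lower with NS-398 by -0.29 ± 0.067 or 0.82-fold (adjusted p 0.0087), -0.32 without suffix and -0.26 in set b. Sel1l gave 667 and 587 with NS-398, 796 and 715 with DMSO and 717 and 779.7 with SC-560 on the arrays without suffix. In set b it gave 865 and 1271 with NS-398, 1240.0 and 1492 with DMSO, 1543 and 1551 with indomethacin and 1411 and 1328 with SC-560. In set b the higher NS-398 array reached above the lower DMSO array, and without suffix NS-398 and DMSO did not overlap. Its change was -0.31 ± 0.097 (adjusted p 0.0459), -0.25 without suffix and -0.36 in set b. Of these 4 calls, Sdf2l1 and Dnajc3 held without any 1 array. Ssr3 was lost without the DMSO arrays 1, 1b or 2b or the NS-398 array 1b (adjusted p 0.0549 to 0.0812), and Sel1l without the DMSO arrays 1, 2 or 2b or the NS-398 arrays 2 or 1b (0.0573 to 0.143). Without suffix alone 1 gene was called, without a term for the set 0, and with the arrays of a group and set averaged 0. The calls over all probe sets also fell without that term and with averaged arrays, by the counts given in the last section.

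The sets did not give the same picture for every gene. For 18 of the 30 genes the NS-398 change had the same sign in both sets, and the share over all probe sets was not computed. Both NS-398 arrays of set b lay above both DMSO arrays for 13 genes (27.1% of all probe sets) and below for 7 (28.5%), and without suffix above for 8 (28.1%) and below for 11 (28.3%). Fitted within set b, Calr (0.18, adjusted p 0.0458), Dnajb11 (0.24, 0.0348) and Ssr1 (-0.20, 0.0279) were called beside Sdf2l1 and Ssr3, and within the arrays without suffix Herpud1 (0.31, 0.0323). The share of all probe sets called in these fits is not given here, so these calls say nothing about the list as a whole. A difference of the NS-398 change between the sets, tested as an interaction, was called for 0 of the 30 genes. Over all probe sets 5.47% were called, 2.92% with a larger change in set b and 2.55% with a smaller one. For 7 of the 30 genes and 3656 of the 17515 probe sets the unadjusted limma p was under 0.05. The difference was largest in the list for Syvn1 (0.38, adjusted p 0.183), Herpud1 (-0.30, 0.0813), Dnajb9 (0.27, 0.194), Calr (0.24, 0.113) and P4hb (0.22, 0.056). Calr was called without the DMSO array 2 (0.33, adjusted p 0.0383), and P4hb with a filter at a signal of 200 (adjusted p 0.0481).

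**Figure D5:**
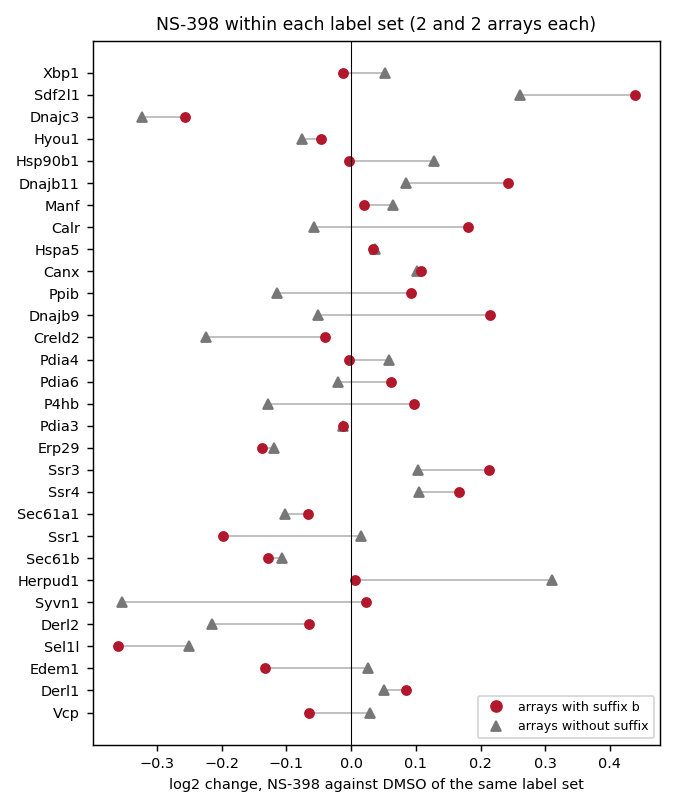
Log2 change of each gene with NS-398 against the DMSO arrays of the same set (x axis); circles are set b and triangles the arrays without suffix, 2 against 2 arrays each, and a grey line joins them. Sdf2l1 and Ssr3 lie right of 0 and Dnajc3 and Sel1l left of it in both sets, while Herpud1, Syvn1 and Calr lie far apart.

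SC-560, given at 1 µM and so not at a matched dose, was not distinguished from DMSO in any of the 30 genes. By limma 0 of the 30 were called, 2 had an unadjusted p under 0.05, and 0% of all probe sets were called (1263 had an unadjusted p under 0.05, and the smallest adjusted p was 0.216). The changes ran from -0.21 to 0.11, with a median of -0.014 (all probe sets, 0.0064). The 2 genes were Edem1 (-0.21 ± 0.067, unadjusted p 0.00671, adjusted p 0.49) and Ssr3 (0.11 ± 0.044, 0.0186, 0.562). The 95% intervals of the genes called with indomethacin were, for example, -0.11 to 0.055 for Hspa5, -0.29 to 0.079 for Creld2 and -0.091 to 0.18 for Herpud1 on the log2 scale. All 3 drugs were compared with DMSO arrays in common, those of set b entering every comparison, so their changes are not independent.

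The suffix itself went with large differences in the same genes. Of the 30, 24 had both DMSO arrays of set b above both without suffix (37.4% of all probe sets), and 3 had them below, Dnajb9, Pdia6 and Vcp (34.4%). The median difference was 0.29, against 0.020 over all probe sets. Dnajb11 differed most, by 1.27 or 2.41-fold, followed by Edem1 at 1.04, and Dnajb9 was lower by -0.63. For Hspa5 it was 0.061, less than the change with indomethacin, and for Hsp90b1 0.44. Since the meaning of the suffix is not given, culture, preparation and hybridisation cannot be told apart here.

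The wider pathway was followed by 5 lists of 88 further genes, of which 83 were tested. With indomethacin 5 were called higher and 1 lower, a share near the 6.70% of all probe sets called, so the count marks out nothing about these lists. Their median change was 0.027 (all probe sets, -0.0037). The thiol oxidases that recharge the disulfide isomerases were higher, Ero1a by 0.52 ± 0.10 (adjusted p 0.0123) and Ero1b, at low signals of 305.8 and 285 against 165 and 134 with DMSO, by 0.80 ± 0.20 (adjusted p 0.0355). Rpn2 (0.22 ± 0.048, adjusted p 0.0219) and Ddost (0.30 ± 0.073, adjusted p 0.0317), subunits of the enzyme that attaches glycans, were higher too. Atf4, the transcription factor translated when PERK is active, was higher by 0.33 ± 0.059 (adjusted p 0.00733), with 10600.4 and 10736 against 8446 and 8472. Prdx4, an ER peroxiredoxin, was lower than with DMSO by 0.21 on the log2 scale (adjusted p 0.0421). In set b it gave 4403 and 4643 with indomethacin and 5216 and 5259 with DMSO. With NS-398 it gave 4613 and 4381 there, and with SC-560 4636.5 and 4665, so indomethacin overlapped with each of the other drugs. By list the calls were 0 of 16 further chaperones, 3 of 14 genes of thiol oxidation, 2 of 25 of targeting and glycan transfer, 0 of 17 of ERAD and 1 of 11 sensors and regulators. Each of these 6 calls was lost without at least 1 of the 4 arrays. Ero1a held only without DMSO 2b, Rpn2 only without DMSO 2b, Ddost only without indomethacin 2b, Atf4 without DMSO 2b or indomethacin 1b, and those of Ero1b and Prdx4 were lost whichever of the 4 was left out. The highest adjusted p was 0.0946 for Ero1a, 0.161 for Ero1b, 0.190 for Rpn2, 0.207 for Ddost, 0.0656 for Atf4 and 0.223 for Prdx4.

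With NS-398 the wider lists held 10 of 83 genes called higher and 6 lower, where 7.12% and 6.39% of all probe sets were, with a median of -0.030 (all probe sets, -0.0076). Ero1a rose most, by 0.78 ± 0.092 (adjusted p 3.93e-05), to 944 and 1073 without suffix and 1811 and 1595 in set b, against 689 and 658 and 806 and 837 with DMSO. Between the drugs in set b, 7 of the 83 were called higher with indomethacin and 3 lower, where 4.01% and 5.29% of all probe sets were. Ero1a signals with NS-398 exceeded those with indomethacin in set b, and that difference was called (-0.48 ± 0.10 for indomethacin against NS-398, adjusted p 0.0137, up to 0.0905 without either indomethacin array or NS-398 1b). Ppp1r15a, which returns the initiation factor eIF2 to its active state, rose by 0.52 ± 0.094 (adjusted p 0.00160), and Ddit3, the stress transcription factor CHOP, by 0.36 ± 0.087 (adjusted p 0.0108). Ppp1r15a was lower with indomethacin than with NS-398 by -0.75 ± 0.067 (adjusted p 0.000120), a call that held without any 1 of the 4 arrays, and Cnpy2 by -0.31 ± 0.061 (adjusted p 0.00963, up to 0.0927 without indomethacin 2b or NS-398 2b). The 7 higher included Pdia5 (0.40 ± 0.098), Erp44 (0.35 ± 0.071), Atf4 (0.25 ± 0.059), Dad1 (0.25 ± 0.058), Rpn2 (0.21 ± 0.048) and Serp1 (0.19 ± 0.052), with adjusted p from 0.0104 to 0.0386. Each of these 7 was lost without either indomethacin array and without at least 1 NS-398 array (adjusted p up to 0.191). Against DMSO, Ngly1 (-0.25 ± 0.059, adjusted p 0.0103) and Ufd1 (-0.25 ± 0.060, adjusted p 0.00955), which act on proteins leaving the ER, and Mbtps1, the protease that releases ATF6 (-0.29 ± 0.063, adjusted p 0.00556), fell. Of the ERAD list Selenok, a selenoprotein of the ER membrane (0.20 ± 0.050, adjusted p 0.0123), and Erlec1, a lectin (0.17 ± 0.052, adjusted p 0.0407), were higher. Erlec1 was lost without any 1 array but NS-398 2b (adjusted p up to 0.115). Subunits of the signal peptidase went both ways, Sec11c higher by 0.36 ± 0.069 (adjusted p 0.00232) and Spcs1 by 0.17 ± 0.036 (adjusted p 0.00454), and Sec11a lower by -0.18 ± 0.045 (adjusted p 0.0119). Atf4 was higher with NS-398 too (0.32 ± 0.085, adjusted p 0.0173), and Erp44 (-0.29 ± 0.073, adjusted p 0.0138) and Sec62 (-0.20 ± 0.063, adjusted p 0.0480) were lower. Each of these was lost without at least 1 array (adjusted p up to 0.131). Apart from these and Erlec1, each NS-398 call against DMSO named here held without any 1 of the 8 arrays. The Atf4 change differed between the sets (interaction -0.49 ± 0.11, adjusted p 0.0159), with 8844 on both NS-398 arrays without suffix against 6391 and 5529 with DMSO, and 8347 and 9586 against 8446 and 8472 in set b. That interaction was lost without DMSO 2 or 1b or NS-398 1, 2 or 1b (adjusted p up to 0.0752). With SC-560 0 of the 83 were called by limma.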

How the data were processed

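Total RNA of IEC-6 cells was amplified in 2 rounds and hybridised to 14 one-colour arrays, per the labels' protocols. The authors deposited 1 linear signal intensity per probe set and array, with all probe sets scaled to a target signal of 500, per the labels; the summarisation method is not given in the sources used here. Of 31099 probe sets, 57 are controls, 20832 carried 1 gene symbol in the platform annotation, 436 several and 9831 none; 20764 symbols were matched to RefSeq GRCr8.

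The deposited intensity was taken as log2(signal + 50), with no further normalization, and the 17515 probe sets that reached a signal of 100 on at least 2 arrays were tested. Fold changes are on that scale and understate those of dim probe sets. Comparisons with indomethacin used the 8 arrays of set b with group means; NS-398 and SC-560 against DMSO used all 14 arrays with an additive term for the suffix; the interaction used 12 arrays. All used limma 3.58.1 (R 4.3.3), empirical Bayes with an intensity trend, and Benjamini-Hochberg adjustment, with calls at an adjusted p under 0.05. The fits were tested on simulated data.

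Members, wider lists and promoter motifs were chosen with earlier results of these data known. Values on every array are given for up to 12 called genes per comparison, by smallest adjusted p, and for Hspa5, Hsp90b1, Xbp1 and Herpud1; from the wider lists, genes were named from up to 2 called in each direction per list. Ppm1l was named after its values were seen. Alternatives were other pseudocounts, filters, normalization, probe set means, models, a replicate block and leaving out each array.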

Additional observations from a re-analysis of the deposited data

Results flagged for a closer look

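Each of the 30 genes was checked for an array far from the others in the 3 groups of 4 arrays, 90 checks in all, of which 1 stood out, where chance gives about 1 in 20. Vcp, the ATPase that extracts proteins from the ER membrane, had a signal of 11991 on the SC-560 array 2, while the other SC-560 arrays lay between 10565 and 10608 (gap over range 0.968 on the log2 scale). Vcp was not called in any of the 5 comparisons. Within groups of 4 arrays the difference between the label sets widens the range for most genes, which limits what this check can show.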

How the results depend on the processing

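For indomethacin against DMSO, the 14 calls in the list became 12 to 15 under the other pseudocounts, filters, quantile normalization, probe set means, the all-array models and the replicate block (14), 5 without the intensity trend and 8 to 10 with 1 array left out. For indomethacin against NS-398, the 12 became 9 to 14 (replicate block 13), 6 without the trend and 7 to 11 with 1 array left out. For NS-398 against DMSO, the 4 became 2 without the filter, 2 without the trend, 2 with a random block for arrays of a group and set, 1 without suffix alone, 0 without a term for the set, 0 with averaged arrays, and 2 to 4 with 1 array left out (2 without DMSO 1, DMSO 2b or NS-398 1b); the other settings gave 3 to 6 (replicate block 4). SC-560 had 0 calls under every alternative (replicate block 0). The interaction had 0 calls, 1 with a filter at 200 (P4hb), 2 with probe set means (P4hb and Herpud1), 0 with the replicate block and 0 to 1 with 1 array left out. No change of a called gene reversed in sign. Of 196 recomputed values of the 14 genes, 162 kept the call, and Sdf2l1, Pdia4, Creld2 and Herpud1 kept it throughout. Against NS-398, 143 of 168 did, and 6 genes kept it throughout; for NS-398 against DMSO 58 of 88 did, and 0 genes. Over all probe sets the calls with indomethacin against DMSO fell from 1174 to 521 without the filter, 235 without the trend, 766 with probe set means, 572 with the additive model and 265 to 639 with 1 array left out. Against NS-398 they fell from 1630 to 813, 578, 1107, 954 and 679 to 978, in the same order. For NS-398 against DMSO they were 2366, with 1529 with probe set means, 1561 with the random block, 111 without a term for the set, 105 with averaged arrays, 3420 with a mean for each group and set, and 1659 to 2055 with 1 array left out. Those of the interaction fell from 958 to 586 without the filter, 330 without the trend and 408 to 758 with 1 array left out. The cause of these shifts was not tested. Arrays of the same number did not deviate together (correlations of -0.064 to 0.011 without suffix and -0.078 to 0.063 in set b). With so few arrays this does not settle whether the numbers mark a pairing. Genes of the wider lists were recomputed only without each array and without the trend. Set b has 2 arrays a group, whose signals may share 1 culture. Small changes such as that of P4hb, or of Ssr3 in its brightest probe set, are at the limit of what these arrays resolve. The other probe sets of Ssr3 gave larger changes, 0.76 and 0.37.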
